A study of Mus musculus with 8 samples.

Results

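The endothelial and angiogenic genes described here are 10 transcripts that mark or steer blood vessels, measured in the growing root end of mouse molars: Pecam1, Kdr, Flt1, Tek, Tie1, Emcn, Cldn5, Esam, Egfl7 and Vegfa. They were chosen by gene symbol, and all 10 were found among the 17631 genes of the authors' deposited table. RNA was taken from the apical part of lower first molars of C57BL/6 mice at postnatal day 7.5, and 4 libraries per group were read as 2 x 50 nt. Control mice were Runx2fl/fl, and mutant mice were Gli1-CreERT2;Runx2fl/fl, so that both groups carried the floxed Runx2 alleles. Per the labels, tamoxifen was injected into the peritoneum at postnatal day 3.5 in both groups, at 1.5 mg per 10 g of body weight. The mutant group alone carried the recombinase, which acts where Gli1 is expressed. An effect of the recombinase or of the allele that carries it and that of losing Runx2 cannot be told apart. The labels do not say whether a library is 1 animal or a pool, so the p-values measure the spread between libraries, which may be technical.

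Blood vessels grow when vascular endothelial growth factor A, the product of Vegfa, is released by cells of the tissue and binds receptor tyrosine kinases on endothelial cells. Kdr encodes the main signalling receptor (VEGFR2), and Flt1 encodes VEGFR1, which binds the same ligand tightly and acts largely as a decoy. A separate system of angiopoietins acts through Tek (the receptor TIE2) with Tie1 as its partner and governs vessel maturation and stability. In teeth, vessels enter the pulp through the open root end and supply the cells that lay down dentin.

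Each gene has 1 normalised mean per group, as the authors deposited it, so no value per library, SD or standard error can be given and the depth of each library is unknown. All means, ratios and p-values given for single genes are from the authors' deposited table, apart from p-values said to be recomputed. The adjusted p is over all 17631 genes, and a gene is called changed when it is under 0.05. The targeted gene, Runx2, had a mean of 65.1 in mutant and 105.5 in control molars (the authors' adjusted p = 0.0646), and Gli1, where the recombinase is active, had 19.9 and 38.8 (adjusted p = 0.0228). The genotype label does not say whether the Gli1-CreERT2 allele leaves its Gli1 copy intact, and the cause of the Gli1 difference was not tested. Summed over all genes, the means came to 955256 (mutant) and 1050684 (control).

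None of the 10 genes passed the threshold, where 0.788% of all genes did (0.471% higher and 0.318% lower in the mutant). At an unadjusted p under 0.05, 3 of the 10 had higher means in the mutant and none had lower ones. That p was reached by 19.3% of all genes in either direction and by 9.89% in the higher direction. Those 3 were Flt1, Kdr and Tek, all receptor tyrosine kinases, at 1.25 to 1.35 times the control mean. The other 7 had fold sizes from 1.02 to 1.06. In all, 7 of the 10 had higher means in the mutant, as did 50.6% of all genes, and the signs of Pecam1, Emcn, Egfl7 and Vegfa turned under other treatments of the values, given below. The median log2 ratio of the 10 was 0.07, against 0.0033 over all genes of the table. With the trend on transcript composition described below subtracted, these medians were 0.16 and -0.01, and 8 of the 10 had a ratio above 0. In bulk RNA, fewer cells of a type and less RNA per cell cannot be told apart.

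Flt1, Kdr and Tek had the widest gaps between the groups, so their upstream sequences are shown here with that of Tie1, the remaining receptor gene of the 10, as given by RefSeq on GRCm38.p6. Each is the 250 bases before the annotated start, 5′ to 3′ on the strand of the gene. Capitals mark matches to AGGAAG, the form of the ETS core searched here, or its reverse complement CTTCCT. The ETS factor family is active in endothelial cells. Other forms of its motif were not searched, so a window without capitals may still hold one.
Kdr, chr5:75978456-75978705, minus strand: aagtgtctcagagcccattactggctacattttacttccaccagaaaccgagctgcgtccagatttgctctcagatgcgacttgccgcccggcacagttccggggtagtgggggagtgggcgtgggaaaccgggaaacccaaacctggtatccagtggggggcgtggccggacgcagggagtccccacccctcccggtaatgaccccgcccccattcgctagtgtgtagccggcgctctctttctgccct
Flt1, chr5:147726012-147726261, minus strand: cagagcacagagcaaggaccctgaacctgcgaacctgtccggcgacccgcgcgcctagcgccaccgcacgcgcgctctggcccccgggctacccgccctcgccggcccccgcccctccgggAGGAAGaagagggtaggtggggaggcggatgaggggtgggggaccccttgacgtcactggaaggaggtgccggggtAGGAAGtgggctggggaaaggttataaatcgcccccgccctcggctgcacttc
Tek, chr4:94739039-94739288, plus strand: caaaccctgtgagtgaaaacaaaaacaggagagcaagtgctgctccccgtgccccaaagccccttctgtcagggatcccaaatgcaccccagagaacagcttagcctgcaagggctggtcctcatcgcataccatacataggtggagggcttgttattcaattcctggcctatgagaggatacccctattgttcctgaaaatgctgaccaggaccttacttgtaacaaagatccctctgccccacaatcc
Tie1, chr4:118489850-118490099, minus strand: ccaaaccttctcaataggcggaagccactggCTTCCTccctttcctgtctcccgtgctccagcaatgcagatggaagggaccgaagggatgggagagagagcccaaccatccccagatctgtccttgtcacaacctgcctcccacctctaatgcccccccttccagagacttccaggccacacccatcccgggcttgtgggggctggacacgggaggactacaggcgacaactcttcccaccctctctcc
The RUNX core TGTGGT was searched on both strands in the same windows, and so was the hypoxia response core ACGTG. RefSeq windows matched 8 of the 10 genes, 11 windows in all, since Egfl7 has 3 and Vegfa has 2. Pecam1 and Esam had no entry. The RUNX core was in 0 of these 11 windows and in 14.0% of the 32851 windows of all genes. The AGGAAG form of the ETS core was in 5 of the 11 (Flt1, Tie1, Emcn and 2 windows of Egfl7) and in 29.5% of all windows. The hypoxia core was in 1, the downstream window of Vegfa, and in 16.6% of all windows. No core overlapped another in these windows. A match is a description of letters, not of binding.

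The ligand gene Vegfa (chromosome 17, 46016993 to 46032369, minus strand, GRCm38) had a mean of 29.7 in mutant and 30.9 in control molars. The log2 ratio was -0.06 (the authors' adjusted p = 0.756), and the sign turned when both groups were scaled to the same sum (0.080) or when the trend on transcript composition described below was subtracted (0.0032). The supply of this ligand's transcript was thus not detectably different. Its receptor Kdr (chromosome 5, 75932827 to 75978458, minus strand) had 52.6 in mutant and 41.6 in control molars, a log2 ratio of 0.34 (the authors' unadjusted p = 0.0315, adjusted p = 0.213). The decoy receptor Flt1 (chromosome 5, 147561604 to 147726011, minus strand) stood at 30.9 against 22.9, a log2 ratio of 0.43 (the authors' unadjusted p = 0.0174, adjusted p = 0.173). These 2 receptors had the highest ratios of the 10 genes, and neither passed the threshold over all genes.

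The angiopoietin receptor Tek (chromosome 4, 94739289 to 94874976, plus strand) had means of 15.9 in mutant and 12.7 in control molars. Its log2 ratio was 0.33 (the authors' unadjusted p = 0.0397, adjusted p = 0.237). Tie1, which encodes the related receptor that pairs with TIE2 and has no firmly established ligand of its own, lies on the same chromosome (118471191 to 118490061, minus strand). It had 30.4 and 28.9 (log2 ratio 0.07, the authors' adjusted p = 0.835). The 4 receptor genes together summed to 129.8 in mutant and 106.1 in control molars, a ratio of 1.22.

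The other 5 genes encode proteins of the endothelial surface, of cell contacts and of secreted matrix. Pecam1 (chromosome 11, 106654217 to 106750628, minus strand), which encodes the adhesion molecule CD31 used to stain vessels, had means of 51.3 and 52.7 in mutant and control (log2 ratio -0.04, the authors' adjusted p = 0.886). Emcn (chromosome 3, 137341067 to 137432185, plus strand), which encodes the sialomucin endomucin of capillaries and veins, had 16.6 and 15.8 (log2 ratio 0.07, the authors' adjusted p = 0.850). Cldn5 (chromosome 16, 18776847 to 18778262, plus strand) encodes the tight junction protein claudin-5 and had 14.6 and 14.3 (log2 ratio 0.03, the authors' adjusted p = 0.984). The fold sizes of these 3 genes were 1.02 to 1.05, and the sign of Pecam1 (0.10 with equal sums) and of Emcn (-0.09 with the composition trend subtracted) was not stable.

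Esam (chromosome 9, 37528078 to 37538319, plus strand), which encodes an immunoglobulin-like adhesion molecule of endothelial contacts, had 16.7 in mutant and 15.8 in control molars (log2 ratio 0.08, the authors' adjusted p = 0.865). Egfl7 (chromosome 2, 26580014 to 26593120, plus strand), which encodes a protein that endothelial cells secrete into their matrix and which hosts the microRNA miR-126, had 16.4 and 17.4 (log2 ratio -0.09, the authors' adjusted p = 0.779). Its exons share 64 bases with Agpat2 on the opposite strand and 264 with the gene model Gm20532 on the same strand, and whether counting used strand is not given in the sources used here. The 5 surface, contact and secreted genes summed to 115.5 in mutant and 116.1 in control molars, a ratio of 0.995. The ratio of sums was thus 1.22 for the receptors and 0.995 for these 5 genes, a grouping by role made after the values were seen and given as a description.

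**Figure D1:**
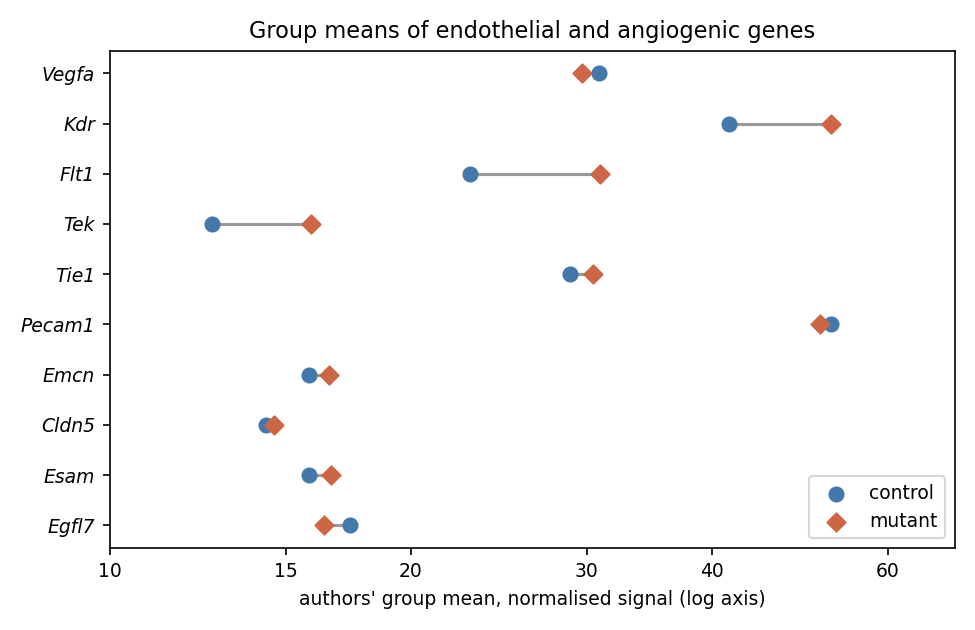
Authors' group means of normalised signal for each of the 10 genes on a log axis, control as circles and mutant as diamonds, with a line joining the 2 means of a gene; no error can be drawn because the table holds no value per library. Kdr, Flt1 and Tek show the wide gaps (52.6 against 41.6, 30.9 against 22.9, 15.9 against 12.7), while Cldn5 and Pecam1 nearly coincide.

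The fold sizes of called genes were read from genes of like level. The 10 genes had a mean over both groups between 14.3 and 52.0, and 4839 genes of the table lay in that range. Of these, 51 passed the threshold (1.05%), 29 of them higher in the mutant, and their smallest fold size was 1.26, with a median of 1.51. Flt1, at 1.35, and Kdr, at 1.26, therefore had fold sizes at which other genes of like level were called. Tek, at 1.25, and the other 7 genes lay below any fold called there. The smallest called fold is an extreme among genes already called and depends on spreads that are unknown. It is therefore no limit of detection. A fold size of at least that of Flt1 was found for 4.24% of the 4839. A p that misses the threshold does not show that levels were alike.

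**Figure D2:**
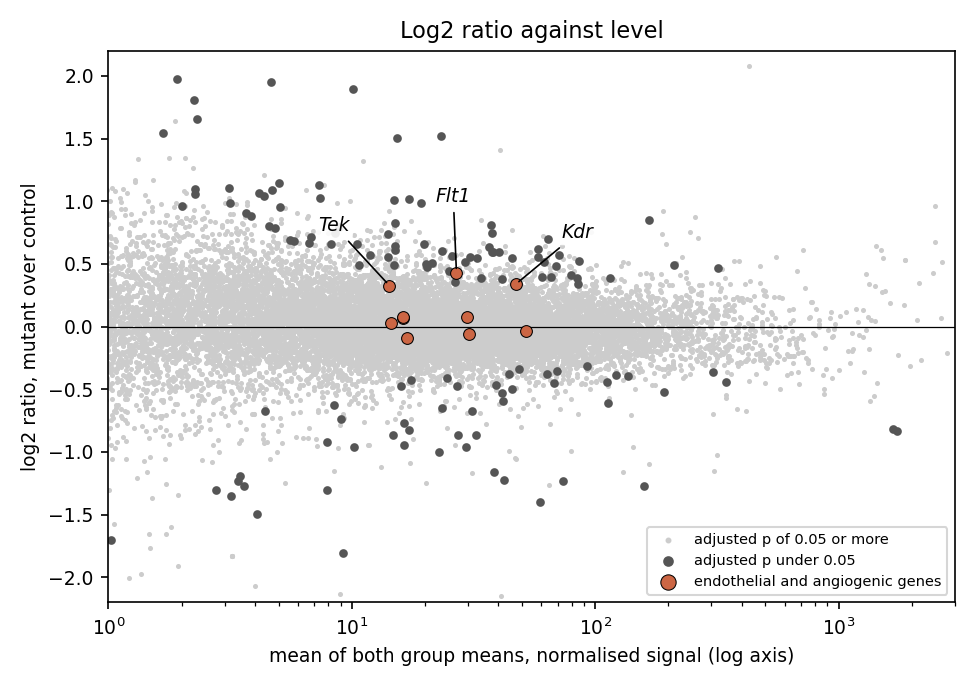
Log2 ratio of mutant over control against the mean of both group means (log axis); grey dots are genes with an adjusted p of 0.05 or more, dark dots genes under 0.05, and orange dots the 10 endothelial and angiogenic genes. The plot spans levels from 1 to 3000 and log2 ratios up to 2.2 in size, which leaves out 3687 genes, 8 of them called; the orange dots lie inside the grey cloud, with Flt1, Kdr and Tek in its upper part.

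Levels can be compared between genes only per length, and the normalisation of the signal is not given in the sources used here. The order that follows assumes that the signal was not already scaled by length, so each mean was divided by the exonic length of its gene. Per kilobase of exon, Cldn5 had the highest level in the control (10.1), followed by Pecam1 (8.45) and Vegfa (7.21), and Flt1 had the lowest (1.70). In the mutant the same 3 led, at 10.3, 8.24 and 6.93, and Flt1 was again lowest at 2.29. Kdr ranked 7 in the control (4.61 per kilobase) and 5 in the mutant (5.83), next to Esam at 5.81. Without a spread over libraries, neighbours in this order cannot be called different, and the lengths count exons of every annotated transcript. Undivided, Pecam1 had the highest control mean (52.7) and Tek the lowest (12.7), with Cldn5 next to lowest (14.3), so the order of levels rests on that assumption.

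The other genes of the same pathways were taken from 10 lists of vessel genes, 138 genes found of 143 symbols listed. These lists include 22 hypoxia response genes and 12 secreted inhibitors of vessel growth, so the pooled counts are not those of endothelial genes alone. None of the 138 passed the threshold, against the 0.788% of all genes, and 84 had higher means in the mutant. At an unadjusted p under 0.05 there were 17 higher and 7 lower, which is 24 of 138 where the share among all genes was 19.3%. The median log2 ratio of the 138 was 0.07.

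Among the other VEGF ligands and receptors, 6 of 7 had higher means in the mutant and the median log2 ratio was 0.21. Pgf, which encodes placental growth factor, a ligand of VEGFR1 that does not bind VEGFR2, had 6.05 in mutant and 2.62 in control molars (log2 ratio 1.21, the authors' adjusted p = 0.0762). It was the 1 gene of all the lists that passed after the trend on transcript composition was subtracted (adjusted p = 0.0469, recomputed from the authors' p-values). The lymphatic ligands Vegfc (4.16 against 3.18, the authors' adjusted p = 0.374) and Vegfd (0.712 against 0.434, adjusted p = 0.294) did not pass. Their receptor gene Flt4 had 14.3 and 12.4, the co-receptor genes Nrp1 39.5 and 36.8 and Nrp2 70.9 and 69.9, and Vegfb 20.6 and 21.7, with adjusted p-values from 0.503 to 0.909. These last 4 were named after their values were seen. Pgf and its receptor gene Flt1 thus both had higher means in the mutant, without passing the threshold.

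In the angiopoietin system, 3 of 8 further genes had higher means and the median log2 ratio was -0.01. Angpt1, which encodes the activating ligand of TIE2 and is made by cells around vessels, had 36.8 in mutant and 28.1 in control molars (log2 ratio 0.39, the authors' adjusted p = 0.0774). Subtraction of the composition trend took its log2 ratio to 0.06. Dok2, an adaptor that binds active TIE2 and is also made by leukocytes, had 2.89 and 1.58 (log2 ratio 0.88, the authors' unadjusted p = 0.00944). Angptl2, a secreted relative that does not bind TIE2, had 24.4 and 31.0 (log2 ratio -0.35, the authors' unadjusted p = 0.00562). Angpt2, which encodes the context-dependent antagonist of TIE2, stood at 4.80 and 5.26, and Ptprb, the phosphatase that restrains TIE2, at 38.8 and 39.1. Both were named after their values were seen.

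Other endothelial identity genes had higher means in the mutant more often than lower ones. Of 39 measured, 28 had higher means (71.8%, against 50.6% of all genes), and the median log2 ratio was 0.08. At the authors' unadjusted p under 0.05 there were 5 higher and 2 lower, where the share among all genes was 19.3% in either direction. The surface sialomucin gene Cd34 had 49.0 against 39.1 and the lectin-like receptor gene Cd93 had 75.4 against 59.9, log2 ratios of 0.33 for both (the authors' adjusted p = 0.192 and 0.199). Gpihbp1, which carries lipoprotein lipase across capillary endothelium, had 5.60 against 8.88 (log2 ratio -0.67, the authors' adjusted p = 0.167). The endothelial cadherin gene Cdh5 had 88.1 and 79.2 (log2 ratio 0.15, the authors' adjusted p = 0.619), so the defining contact gene of the lineage was well detected in both groups. No defining marker was at or near 0, since the lowest group mean among the 10 genes was 12.7.

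Genes that separate vessel types did not pass either. Of the 12 arterial genes 8 had higher means (median log2 ratio 0.08), of the 11 venous and capillary genes 8 (0.09), and of the 14 tip and sprouting cell genes 9 (0.06). The arterial list holds Alpl (1017 against 1166) and Unc5b (568 against 581), at levels far above Cdh5 (88.1 and 79.2). Which cells made these transcripts was not tested, so the counts may not be those of endothelium alone. The basement membrane genes Nid2 (124 against 95.6, the authors' adjusted p = 0.0775) and Lama4 (112 against 89.5, adjusted p = 0.0980) had the lowest p-values among the tip cell genes, and fibroblasts also make such proteins. Of the 7 lymphatic genes 6 had higher means (median log2 ratio 0.37), among them Lyve1, a hyaluronan receptor of lymphatic vessels and of tissue macrophages, at 14.6 against 9.89 (the authors' adjusted p = 0.0882). Prox1, Ccl21a and Mmrn1, also among the 6, had low means, at 1.09 or less in both groups. With the composition trend described below subtracted, the median of the 7 was 0.24. The 12 further junction genes had a median log2 ratio of -0.02, and none reached an unadjusted p under 0.05. F11r, which encodes a junctional adhesion molecule of epithelia and endothelia, was nearest at 61.8 against 69.9 (the authors' unadjusted p = 0.0931).

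The 22 hypoxia response genes, which hold oxygen-sensing regulators of Vegfa and, for the most part, other targets of the hypoxia factors, had a median log2 ratio of -0.03 and 8 had higher means in the mutant. The glucose transporter gene Slc2a1 had 34.3 against 24.7 (log2 ratio 0.47, the authors' adjusted p = 0.161), and Hif1a, which encodes the oxygen-regulated factor that induces Vegfa, had 125 against 110 (log2 ratio 0.19, adjusted p = 0.182). Egln2, one of the oxygen-sensing hydroxylase genes, had 40.1 against 46.9 (the authors' adjusted p = 0.187). Secreted inhibitors of vessel growth went both ways, with 7 of 12 higher and a median log2 ratio of 0.11. The thrombospondin gene Thbs1 had 234 against 140 (log2 ratio 0.74, the authors' adjusted p = 0.173), whereas its relative Thbs2 had 53.0 against 105 (log2 ratio -0.99, adjusted p = 0.126). The guidance cue gene Sema3a had 15.4 against 9.34 (log2 ratio 0.72, the authors' adjusted p = 0.0639).

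**Figure D3:**
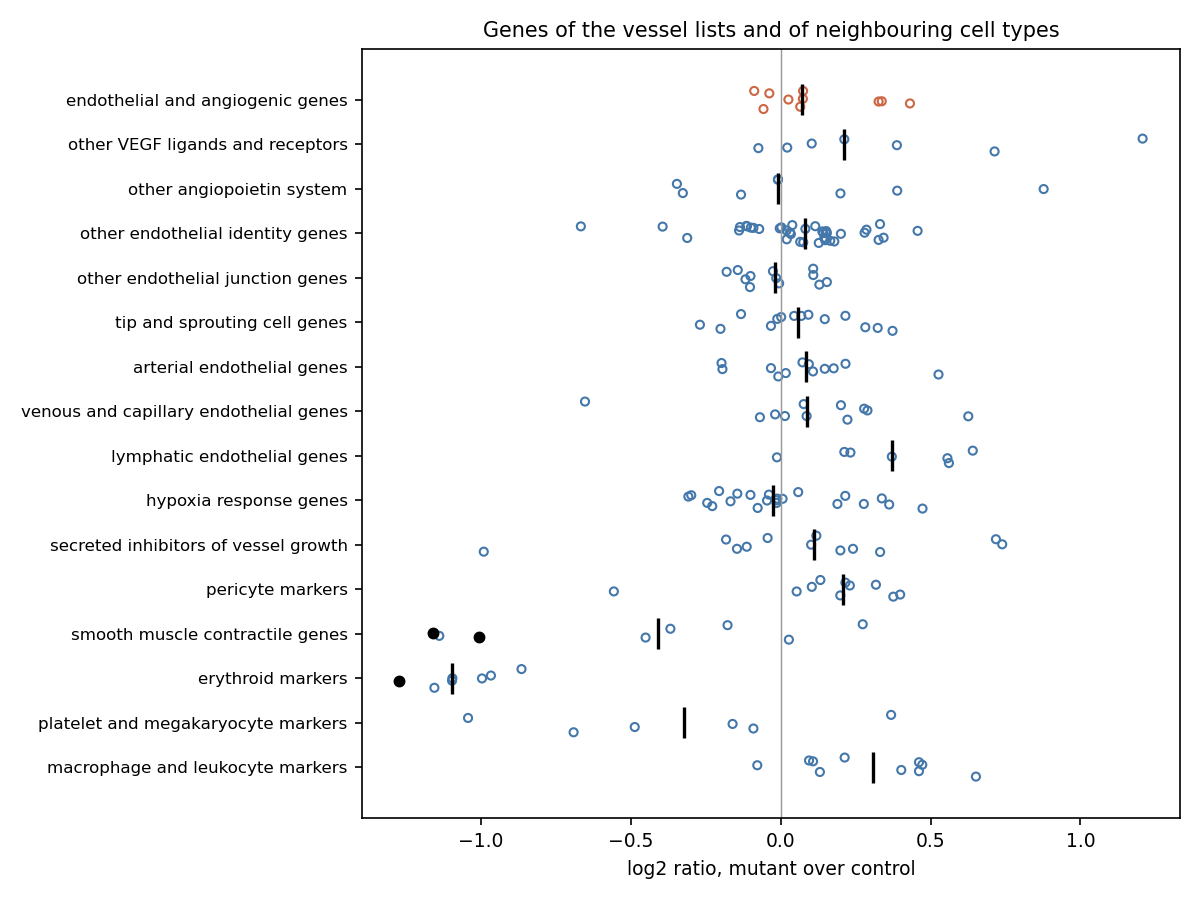
Log2 ratio of mutant over control for each measured gene of the 10 endothelial and angiogenic genes (orange, top row) and of 15 further lists (blue); filled black dots are genes with an adjusted p under 0.05, and the black bar is the median of a row. The vessel rows hold no filled dot and have medians from -0.03 (hypoxia response) to 0.37 (lymphatic), whereas the erythroid row lies wholly to the left (median -1.09) and the smooth muscle row mostly so (median -0.41).

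Markers of blood and mural cells, which share the tissue with endothelium, were read beside these genes. Erythroid markers had lower means in the mutant for 7 of 7 genes (median log2 ratio -1.09), with summed means of 426 against 946, and the alpha-globin gene Hba-a1 fell (92.5 against 223, the authors' adjusted p = 0.0484). Of 8 contractile smooth muscle genes 6 had lower means (summed means 145 against 194). Of these, Cnn1, Actg2 and Lmod1 had means under 1 in both groups. Myh11 (4.53 against 4.44) and Mylk (56.1 against 46.4) had higher means, so the list did not move as a whole. Acta2 (the authors' adjusted p = 0.0318) and Tagln (adjusted p = 0.0417) fell, from 53.0 to 23.7 and from 30.4 to 15.2. With the composition trend described below subtracted, these 3 calls were lost, at recomputed adjusted p-values of 0.0572 for Acta2, 0.126 for Tagln and 0.315 for Hba-a1. Their log2 ratios stayed nearly as large, from -1.16 to -1.12 for Acta2, from -1.004 to -0.942 for Tagln and from -1.27 to -1.07 for Hba-a1. Hba-a1 and Hba-a2 are near-identical, so reads may be split between them. The 9 endothelial genes, Vegfa left out, summed to 245 in mutant and 222 in control molars, a ratio of 1.10. The part of blood content and of mural cells in the endothelial values was not tested.

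Pericyte markers, from cells wrapped around capillaries, had higher means for 9 of 10 genes (median log2 ratio 0.21, summed means 715 against 614). None passed, and Cspg4, which encodes the proteoglycan NG2, was nearest at 43.1 against 34.6 (the authors' adjusted p = 0.0914). Macrophage and leukocyte markers had higher means for 9 of 10 genes (median 0.31, summed means 562 against 476), with none past the threshold. The pan-leukocyte gene Ptprc had 8.65 against 5.50 (the authors' adjusted p = 0.0608) and Mrc1, a macrophage mannose receptor gene, 112 against 81.1 (adjusted p = 0.0876). Some listed genes, such as Pecam1, Flt1, Tek and Lyve1, are also known from leukocytes. The 6 platelet markers found included Pf4 (17.4 against 13.5, the authors' adjusted p = 0.198), which macrophages also express. Of these 6, 5 had lower means in the mutant, and Gp1bb stood at 0.970 against 2.00 (the authors' adjusted p = 0.0869). The defining markers of these cell types were therefore present in both groups, and their part in the values was not tested.

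The ratios of all genes followed transcript composition, and the 10 genes differ in it. Among 13128 protein-coding genes whose higher mean reached 1, the median log2 ratio went from 0.18 in the GC-poorest eighth to -0.12 in the GC-richest. By exonic length it went from -0.10 in the shortest eighth to 0.11 in the longest. Flt1 lies in the longest eighth and Kdr in the seventh by length, with transcript GC contents of 50.2% and 48.4%. Cldn5 is in the shortest eighth and the GC-richest, at 60.5%, and Emcn is in the GC-poorest, at 43.6%.

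After a smooth trend on GC content and length was subtracted, Flt1 kept a log2 ratio of 0.35 (unadjusted p = 0.0662, recomputed from the authors' p-values), Tek 0.27 (0.0890) and Kdr 0.25 (0.117). None of the 10 then reached an unadjusted p under 0.05, and none passed after adjustment, where 0.182% of all genes did. Cldn5 moved from 0.03 to 0.22, Tie1 from 0.07 to 0.16 and Esam from 0.08 to 0.15, while Emcn turned from 0.07 to -0.09. The median of the 4 receptors was 0.33 before and 0.26 after, and that of the 5 surface, contact and secreted genes was 0.03 and 0.01. The gap between receptor genes and the other endothelial genes was thus smaller with the trend subtracted. Among the list genes named above, the subtraction took the log2 ratio of Hif1a from 0.19 to -0.0060, of Mrc1 from 0.46 to 0.16, of Lama4 from 0.32 to 0.16, of Ptprc from 0.65 to 0.37 and of Sema3a from 0.72 to 0.48.

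**Figure D4:**
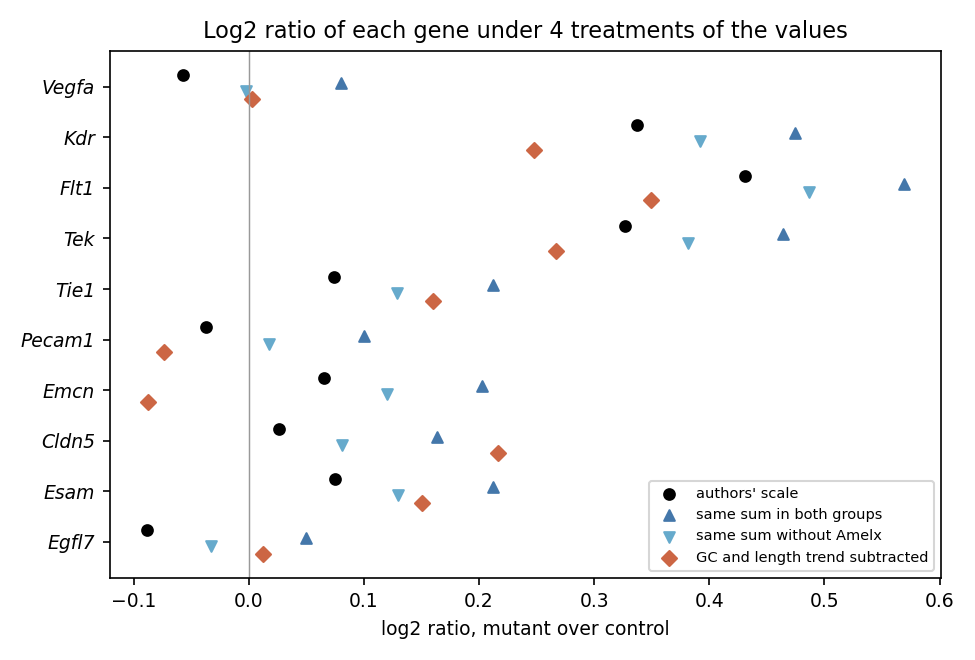
Log2 ratio of mutant over control for each of the 10 genes on the authors' scale (black circles), after scaling both groups to the same sum (upward triangles), after the same without Amelx, the most abundant gene (downward triangles), and after subtracting the trend on GC content and length (diamonds). Kdr, Flt1 and Tek stay between 0.25 and 0.57 in all 4, whereas Vegfa, Pecam1, Emcn and Egfl7 cross 0.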

How the data were processed

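RNA-seq of 8 libraries, 4 per group, was summarised by the authors as 1 table for the whole series. The submitters' processing notes name STAR 2.6.1d, Partek and mm10 with no roles. Annotation, counting, normalisation and model: not given in the sources used here. The table compares KO with WT by gene-specific analysis, per the file headers. The deposited group means are normalised signal on a linear scale, not read counts, and the deposited total equals 4 times the sum of both means for all 17631 genes (relative tolerance 1e-06). The deposited ratio divides the mutant mean by the control mean, and the deposited signed fold change, a score with no value between -1 and 1, restates it. The deposited p-value is the authors', and the deposited FDR equals its Benjamini-Hochberg adjustment over all genes.

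No value per library exists in this table, so a count test planned for such values could not be run and the authors' adjusted p under 0.05 was used. Log2 ratios are logs of the deposited ratio. GENCODE M21 (GRCm38, which is mm10) held 17562 of the symbols (99.6%). That gave coordinates, exonic length (union of exons) and mean transcript GC content. The trend of signed z, from p and direction, and of the log2 ratio on GC content and log2 length was fitted with smooth terms in mgcv 1.9.3 (R 4.3.3) over protein-coding genes whose higher mean was at least 1. It took 25.0% of the variance of z. The fit was then subtracted from all 17562 genes and p-values were recomputed. The step was tested on simulated data holding a known linear trend and large planted shifts. Calls near the threshold, such as that of Pgf, were not tested by it.

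The 10 genes and the 15 further lists were chosen with earlier results of these data known, so their counts are descriptions. Of the listed symbols, 11 were not found, among them Figf, an older symbol of Vegfd. Genes were named by rule: the 10 genes, then from each list those past the threshold and up to 3 by p-value, and Runx2 and Gli1; other names were added after their values were seen. Alternatives were a threshold of 0.1, a low-value filter, the Benjamini-Yekutieli adjustment, other scalings, a pseudocount of 1 and the trend subtraction.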

Additional observations from a re-analysis of the deposited data

How the results depend on the processing

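No member of the 10 was called under any of the 4 alternatives tried: an adjusted p under 0.1, adjustment over genes whose higher mean is at least 1, the Benjamini-Yekutieli adjustment, and subtraction of the GC and length trend. The Benjamini-Yekutieli adjustment was computed over all genes and read for the 10 genes alone. It never lowers an adjusted p, so it could not have called a gene that had missed the threshold. Of the further list genes, 3 were called (Acta2, Tagln and Hba-a1, all lower). This became 16 at an adjusted p under 0.1 (9 higher and 7 lower), 4 with the low-value filter, where Ptprc was added, and 1 with the trend subtracted, Pgf. Of all genes, 0.788% passed on the authors' adjusted p under 0.05 and 0.182% with the trend subtracted. The shares of all genes at 0.1 and with the low-value filter were not computed, so those counts have nothing to be set beside. Scaling both groups to the same sum added 0.14 to every log2 ratio so that list medians just below 0 rose above it, and turned the sign of Pecam1 (0.10), Egfl7 (0.049) and Vegfa (0.080). The same scaling without Amelx, chosen after seeing the data, added 0.055 and turned Pecam1 alone (0.017). Subtracting the trend turned Emcn (-0.087), Egfl7 (0.012) and Vegfa (0.0032). All 10 kept their direction when centred on the median and with a pseudocount of 1. No paired analysis was possible because the table holds group means only, although the labels number the libraries 2 to 5 in both groups; for the same reason no library could be left out, and the depth behind each value is unknown.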
